A study of Mus musculus with 4 samples.

Results

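Imprinted genes are transcribed from a single parental allele. This account covers a list of 50 of them together with Zfp57, the KRAB zinc finger gene whose product guards imprints, in mouse embryonic stem cells with and without Trim28. Members were chosen by gene symbol, with earlier results of these data known. Each was read from the probe set of highest mean that the array annotation lists for that gene alone. Of the 51 listed genes, 41 could be read in this way among the 18820 genes compared. For H19, Kcnq1ot1, Nespas, Peg13, Zrsr1 and Commd1, 6 genes, no probe set was listed under the symbol, and Snrpn, Snurf, Rtl1 and Mirg, 4 genes, had only probe sets shared with other genes. The wild-type group, KAP_WT, was of wild-type genotype and the knockout group, KAP_KO, carried the conditional KAP1 fl/fl alleles, KAP1 being another name of Trim28. Both groups are labelled with 4-OH-tamoxifen, the drug that sets off the conditional deletion; the protocol names 24 h of drug or ethanol followed by 48 h without it. Each group has 2 samples called biological replicates, 1 Affymetrix Mouse Gene ST array each, from stem cells grown on irradiated embryonic fibroblasts. The driver of the recombinase, the number of clones, and whether the wild-type cells are the same line before deletion are not given in the sources used here. Loss of Trim28 and a difference between lines therefore cannot be told apart.

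An imprint is a mark of DNA methylation that one germline lays down at an imprinting control region and that the embryo keeps on that parental copy. ZFP57 binds the methylated copy at many of these regions and brings TRIM28, which recruits histone H3 lysine 9 methyltransferase and DNA methyltransferase activity, so that the mark survives the wave of demethylation in the early embryo and persists in embryonic stem cells. Genes around a control region are expressed from the maternal or the paternal copy, often in opposition, and several act on fetal growth: Igf2 promotes it, while Igf2r, Grb10, H19 and Phlda2 restrain it. Arrays measure the sum of both parental copies, so none of the values below assigns a transcript to a parent.

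Values are the deposited log2 expression levels (a difference of 1 is a 2-fold change), and changes are given as knockout minus wild type. Tests are limma's moderated test across all 18820 genes with Benjamini-Hochberg adjustment, and "rose" or "fell" means an adjusted p under 0.05. Because nothing in the labels says that replicates came from separate cultures, the p-values measure only the spread between these samples. The arrays correlated at 0.994 within the wild type, 0.995 within the knockout and 0.974 to 0.976 between groups. Trim28 itself read 11.29 and 11.37 in the wild type against 8.97 and 8.92 in the knockout, where 19.2% of the wild-type level remained.

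Zfp57 fell in the knockout. It read 10.79 and 10.86 in the wild-type replicates and 9.80 and 9.61 in the knockout replicates (probe set 10445071). Every knockout value lay below every wild-type value, and the change was -1.12 (SE 0.10, 95% confidence interval -1.36 to -0.87, limma adjusted p = 0.000545), a 2.17-fold lower level. Leaving out each sample in turn gave changes from -1.21 to -1.03. Zfp57 lies on chromosome 17 within the extended major histocompatibility complex, and its surroundings were lower as well. Among the 5 nearest tested genes on each side, 7 of 10 fell and 0 rose, where 12.7% and 14.2% of all tested genes did. Their median change was -0.53. This was the lowest neighbour median of all 41 measured members. The deepest falls there were those of H2-M5, a non-classical class I gene (-1.96), Gabbr1, a GABA-B receptor subunit gene (-1.87), and 2410137M14Rik (-1.73), each larger in size than that of Zfp57. Mog, the myelin glycoprotein gene, is the nearest tested neighbour of Zfp57 on the side where Gabbr1 lies. It averaged 4.49 in wild-type and 4.32 in knockout samples (limma adjusted p = 0.214).

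Among the imprinted genes, rises outnumbered falls. Of the 41 measured members, 18 rose, 6 fell including Zfp57, and 17 did not pass the test. Among all tested genes 14.2% rose and 12.7% fell (26.9% in all). The count of falls is close to that background and that of rises is above it. The list was chosen with earlier results of these data known, so this comparison is a description only. A rise of at least 2-fold was found for 11 members and a fall of at least 2-fold for 3, against 4.44% and 1.46% of all tested genes. The median change was 0.19 over the members and -0.05 over all tested genes. Among the 6274 genes of highest mean level, 11 of 20 members rose and 4 fell, where 15.4% and 19.3% of all these genes did. Among the 6272 genes of middle level, 6 of 16 members rose and 2 fell, against 23.5% and 16.2% of all these genes. Among the 6274 genes of lowest level, 1 of 5 members rose, Zim1, and 0 fell, against 3.73% and 2.77%. The split of calls depends on scaling: with each array's median over the tested genes subtracted, which moves every change by about the -0.17 between the median changes of all genes (-0.05 and -0.22), 16 members rose and 9 fell with a median of 0.02, while 2065 of all genes rose and 6392 fell, against 2676 and 2395 as deposited. Without regard to the test, the knockout values all lay above the wild-type values for 22 members and all below for 9, where 26.6% and 38.6% of all tested genes did so. None of the 24 called members changed sign under any alternative. Without wild-type replicate 1 the members' counts were 13 and 4, without wild-type replicate 2 they were 14 and 5, and without knockout replicate 1 or 2 they were 18 and 6 or 15 and 5. The members' median change was 0.34 without knockout replicate 1 and 0.087 without knockout replicate 2.

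**Figure D1:**
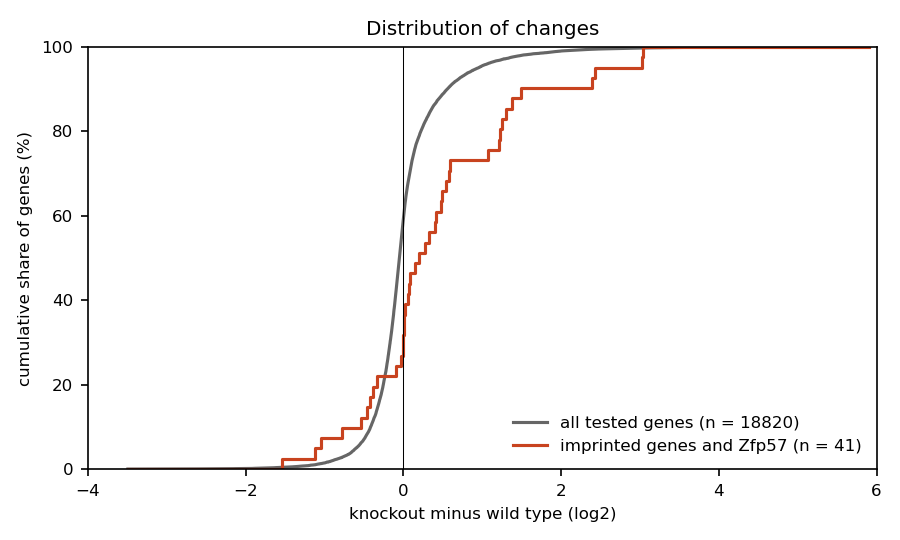
Cumulative share of genes (vertical axis, percent) at or below each change between knockout and wild type (horizontal axis, log2), for all 18820 tested genes (grey) and the 41 measured members (red steps). The red curve lies to the right of the grey one above a change of 0, with 11 members at a rise of 2-fold or more.

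The largest rise was that of Grb10, which encodes an adaptor protein that dampens insulin and IGF receptor signalling. It read 5.66 and 5.89 in wild-type samples against 8.72 and 8.90 in knockout samples (probe set 10384398). The change of 3.04 (SE 0.12, limma adjusted p = 3.59e-05), 8.22-fold, ranked 42 among the rises of all tested genes. Ddc, the aromatic amino acid decarboxylase gene beside Grb10 on chromosome 11, moved the opposite way, from 7.22 and 7.09 to 5.71 and 5.52. Its change of -1.54 (SE 0.11, adjusted p = 0.000196) was the deepest of all measured members. Both genes had the same 10 non-member neighbours, whose median change was -0.13. These include Cobl, reported as imprinted in some tissues, which fell by 2.62, and Egfr, the EGF receptor gene, which rose by 1.79 (adjusted p = 0.00143).

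At the Igf2 and H19 locus on chromosome 7, Igf2, the fetal growth factor gene, read 6.94 and 6.82 in wild-type samples against 9.74 and 10.07 in knockout samples (probe set 10569344). The rise of 3.03 (SE 0.13, limma adjusted p = 4.59e-05), 8.16-fold, ranked 43 among all rises, next to Grb10. A probe set shared by Igf2 and the antisense transcript Igf2os had a smaller difference of 0.36, with values of 6.52 and 6.40 against 6.65 and 7.001. H19, the non-coding partner that competes with Igf2 for shared enhancers, had no probe set listed under its symbol. The array does carry one for Mir675, whose hairpin (chr7:142577064-142577147, GRCm38.p6) lies within H19 (chr7:142575530-142578146). That probe set read 4.66 and 4.63 in wild-type samples against 6.99 and 6.68 in knockout samples, a rise of 2.19 (SE 0.12, limma adjusted p = 9.33e-05). It was singled out after its values were seen. Whether it reports the hairpin, its host transcript or both was not tested. The mature products of this hairpin, from RefSeq, are shown with the seed, bases 2 to 8, in capitals, as the products that this hairpin is annotated to give:
mmu-miR-675-5p: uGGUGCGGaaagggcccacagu
mmu-miR-675-3p: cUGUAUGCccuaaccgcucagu

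In the Peg3 domain on proximal chromosome 7, Peg3, a paternally expressed zinc finger gene, read 6.81 and 6.54 in wild-type samples against 9.00 and 9.13 in knockout samples. It rose by 2.39 (SE 0.12, limma adjusted p = 7.03e-05), 5.26-fold. The other measured genes of the domain had smaller changes. Usp29, a ubiquitin protease gene read from the opposite strand of the same promoter region, had 3.91 and 3.49 against 3.77 and 3.62, overlapping values with a change of -0.01. Zim1, a maternally expressed zinc finger gene, rose from 3.41 and 3.36 to 3.73 and 3.87 (change 0.41, adjusted p = 0.0199). Both wild-type values of Zim1 lie below the lower quartile of tested genes, 3.76 to 3.80 on the 4 arrays, where signal over background is not known. Its call was lost with array medians subtracted (adjusted p = 0.0869) and without wild-type replicate 1 (0.0839), wild-type replicate 2 (0.111) or knockout replicate 2 (0.0963).

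The rises of Nnat, Inpp5f, Mest and Plagl1 came from loci on separate chromosomal bands. Nnat, a small membrane proteolipid gene of developing brain that lies in an intron of Blcap on chromosome 2, read 7.43 and 7.49 in wild-type samples against 9.77 and 10.01 in knockout samples. It rose by 2.43 (SE 0.11, limma adjusted p = 5.75e-05), 5.38-fold, while its host gene Blcap averaged 6.24 and 6.20 in these groups. Inpp5f, an inositol phosphatase gene with an imprinted shorter transcript, rose from 5.17 and 5.35 to 6.62 and 6.67 (change 1.38, adjusted p = 0.000224). Which of its transcripts the probe set reads was not tested. Mest, also called Peg1, which encodes a hydrolase-like protein, rose from 8.74 and 8.84 to 9.88 and 10.19 (change 1.25, adjusted p = 0.000741). Plagl1, or Zac1, is a zinc finger factor gene known as a regulator of other imprinted genes. It had the smallest replicate spread of the large rises, with 7.03 and 7.01 against 8.25 and 8.22 (change 1.21, adjusted p = 0.00022). For each of these genes the groups were separate, with gaps larger than the difference between replicates.

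Other single loci stayed closer to their wild-type level. Impact, a translational regulator gene on chromosome 18, rose from 9.56 and 9.52 to 9.81 and 10.08 (change 0.41, adjusted p = 0.0407). That call was lost with array medians subtracted (adjusted p = 0.140) and without wild-type replicate 1 (0.148), wild-type replicate 2 (0.181) or knockout replicate 2 (0.185). Slc38a4, an amino acid transporter gene, read 10.43 and 10.35 against 10.45 and 10.33, a change of 0.00 with a 95% confidence interval of -0.23 to 0.23. Zdbf2 and Rasgrf1 belong to the few loci whose imprint comes from the father. Zdbf2 read 9.06 and 8.55 against 8.39 and 8.38 (change -0.42, adjusted p = 0.109), and fell without wild-type replicate 2 (-0.67, adjusted p = 0.0288) and with array medians subtracted (-0.59, adjusted p = 0.0258). Rasgrf1 lay near 3.8 on all arrays, at the lower quartile of tested genes.

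The Igf2r and Airn pair on chromosome 17 moved in opposite directions. Airn, the paternally expressed non-coding RNA that silences Igf2r in cis, rose from 4.50 and 4.67 to 5.94 and 6.20 (change 1.49, SE 0.12, limma adjusted p = 0.000342). A second Airn probe set, dimmer than the first, had a difference of 0.27, with 3.86 and 4.12 against 4.11 and 4.41. Igf2r, whose product clears IGF2 from the cell surface, fell from 8.55 and 8.59 to 8.21 and 7.99 (change -0.47, adjusted p = 0.0193). The fall was not called without wild-type replicate 1 (adjusted p = 0.0957), wild-type replicate 2 (0.117) or knockout replicate 2 (0.0896). The non-member genes around the pair had a median change of -0.18.

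In the Dlk1-Meg3 domain on chromosome 12, the maternally expressed non-coding RNA Meg3 rose from 6.30 and 5.95 to 7.21 and 7.19 (change 1.08, SE 0.13, limma adjusted p = 0.00159). Rian, the snoRNA host transcript downstream of Meg3, read 3.91 and 3.74 against 3.91 and 4.38, a change of 0.32 that did not pass (adjusted p = 0.201) except without knockout replicate 1 (0.56, adjusted p = 0.0213). The probe set shared by Mirg, the microRNA host at the far end, and Mir410 read 3.52 and 3.78 against 4.38 and 4.30, a difference of 0.69. The shared probe set was outside the genes tested, and both of its knockout values lay above both wild-type values. The protein-coding genes of the other parental copy were not called. Dlk1, encoding a Notch-like ligand, read 6.54 and 6.48 against 6.46 and 6.86 (change 0.15, adjusted p = 0.492), and Dio3, the thyroid hormone deiodinase gene, 4.37 and 4.42 against 4.47 and 4.25. The 6 probe sets shared by Rtl1 and microRNAs of its antisense strand had differences between -0.24 and 0.14.

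Among genes controlled from the Snrpn locus on central chromosome 7, Ndn and Magel2 rose. Ndn, or necdin, a MAGE family gene that restrains cell proliferation, read 7.36 and 7.53 in wild-type samples against 8.53 and 8.81 in knockout samples (change 1.22, SE 0.13, limma adjusted p = 0.000822). Magel2, its neighbour of the same family, rose from 4.92 and 4.95 to 5.61 and 5.33 (change 0.53, adjusted p = 0.0166); the call was lost without wild-type replicate 1 (adjusted p = 0.111), wild-type replicate 2 (0.0978) or knockout replicate 1 (0.0591). The single probe set for the joint Snurf and Snrpn transcript, next to the control region itself, had 9.33 and 9.36 against 9.60 and 9.62, a difference of 0.26. Ube3a, a ubiquitin ligase gene that is imprinted in neurons, had a change of 0.27 (adjusted p = 0.0857), Peg12 of 0.19 and Mkrn3 of 0.06. Both Mkrn3 groups overlapped, with 4.20 and 4.72 against 4.37 and 4.67.

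The Kcnq1ot1 domain on distal chromosome 7 held rises and falls. Phlda2, a growth-restraining gene known best from the placenta, fell from 10.90 and 10.87 to 10.08 and 10.14 (change -0.78, SE 0.09, limma adjusted p = 0.00126). Slc22a18, a transporter gene beside it, fell from 6.27 and 6.16 to 5.30 and 5.03 (change -1.05, SE 0.12, adjusted p = 0.0012). Osbpl5, an oxysterol-binding protein gene further along, rose from 5.22 and 5.46 to 6.39 and 6.89 (change 1.30, SE 0.18, adjusted p = 0.00241). Toward the other end, Cd81, a tetraspanin gene, read 11.17 and 10.94 against 11.09 and 11.15, and Tssc4 read 7.18 and 7.15 against 7.13 and 7.24, so both overlapped between groups. Genes around Phlda2 and Slc22a18 had a median change of -0.26, with 3 of 10 falling and 2 rising, against 12.7% and 14.2% of all tested genes.

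In the Peg10 domain on proximal chromosome 6, Sgce, the epsilon-sarcoglycan gene, rose from 6.86 and 6.77 to 7.42 and 7.36 (change 0.58, SE 0.09, limma adjusted p = 0.00493). Peg10, a retrotransposon-derived gene that starts beside Sgce on the opposite strand, read 10.90 and 10.93 against 11.00 and 11.00, a change of 0.08 (adjusted p = 0.544) that turned to -0.09 with array medians subtracted. Ppp1r9a, a neuronal scaffold gene, read 6.09 and 5.63 against 5.59 and 5.36 (adjusted p = 0.139), and passed as a fall with array medians subtracted (-0.56, adjusted p = 0.0304). The genes around this domain had a median change of 0.22 and 4 of 10 higher, against 14.2% of all tested genes. Gnas, the stimulatory G protein alpha subunit gene on chromosome 2, rose from 7.57 and 7.64 to 8.01 and 8.19 (change 0.49, adjusted p = 0.0128). Its other probe set gave 6.76 and 7.53 against 7.48 and 7.82, a difference of 0.50 with overlapping groups. The Gnas call was lost with the mean of both probe sets (adjusted p = 0.0604) and without wild-type replicate 1 (0.0894), wild-type replicate 2 (0.0710) or knockout replicate 2 (0.0605).

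At H13 and Mcts2 on chromosome 2, a retrogene within an intron of its host, the partners moved apart. H13, a signal peptide peptidase gene, rose from 8.16 and 8.22 to 8.73 and 8.83 (change 0.59, SE 0.09, limma adjusted p = 0.00453). Mcts2, the paternally expressed retrogene whose transcription is known to truncate H13, fell from 8.95 and 8.93 to 8.32 and 8.48 (change -0.54, SE 0.10, adjusted p = 0.00766), with adjusted p of 0.0628 and 0.0585 without wild-type replicate 1 or 2. The Herc3 and Nap1l5 pair on chromosome 6 is of the same kind. There the host Herc3, a ubiquitin ligase gene, rose from 6.05 and 6.16 to 6.56 and 6.61 (change 0.48, adjusted p = 0.0101), though not without wild-type replicate 1 (adjusted p = 0.0713). The retrogene Nap1l5 read 4.29 and 4.48 against 4.32 and 4.27. Around Peg13 on chromosome 15, Trappc9, a trafficking complex gene, had a change of -0.01 and Kcnk9, a potassium channel gene, one of -0.34 (adjusted p = 0.141), which passed with array medians subtracted (-0.51, adjusted p = 0.0230).

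**Figure D2:**
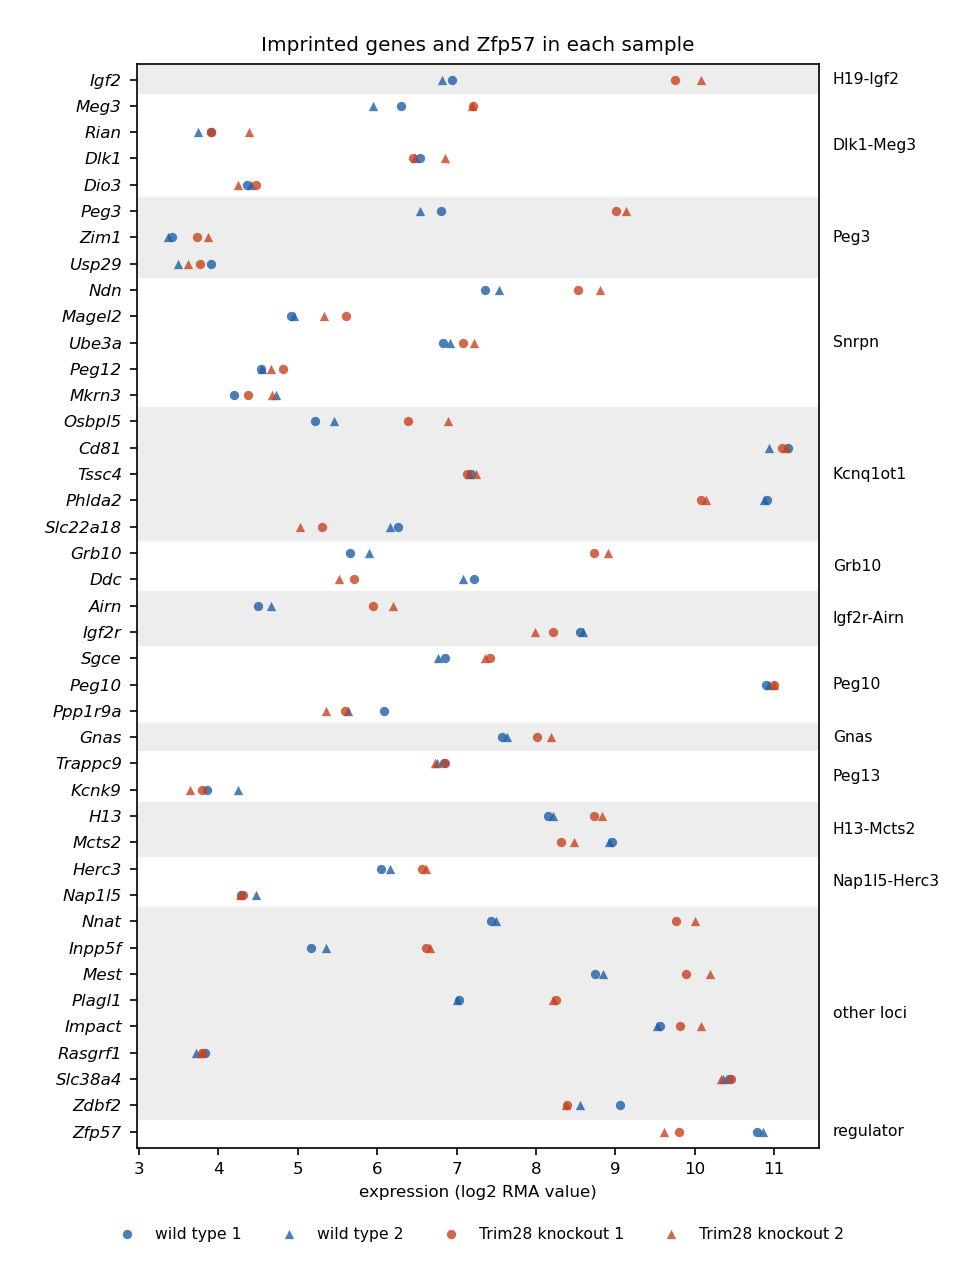
Expression of the 41 measured members in each of the 4 samples (horizontal axis, log2 value), grouped by imprinted cluster, with wild-type samples in blue and Trim28 knockout samples in red (circles replicate 1, triangles replicate 2). The groups are widely separate for Grb10, Igf2, Peg3 and Nnat, each with knockout values of 8.72 or more against wild-type values of 7.49 or less, and overlap for Cd81, Slc38a4 and Dlk1.

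The calls of the genes next to the members varied by locus. A median over 10 genes varies less than a single gene, so the neighbour medians are not comparable in size with single members. Single neighbours changed by more than these medians, such as Cobl (-2.62) and Egfr (1.79) beside Grb10. The 5 nearest tested non-member genes on each side were taken from the gene order of GRCm38.p6. Some of them are imprinted transcripts outside the list, and Mir675 beside Igf2 lies within H19, which is on the list. Around Dlk1, Meg3, Rian and Dio3 several neighbours are microRNAs of that domain. Members of a cluster share neighbours. Over the 18 members that rose, the median of the neighbour medians was -0.04, and over the other 23 members it was -0.04 as well. The neighbour medians of all 41 members lay between -0.53, at Zfp57, and 0.26, at Rasgrf1. Between 0 and 4 of the 10 neighbours of a member rose, where 14.2% of all tested genes did. Neighbours were not matched by level, and some were dim. The olfactory receptor genes beside Peg3 had group means between 3.62 and 4.81. Of the genes of lowest level only 3.73% rose, so a low count among dim neighbours does not show that expressed surroundings were unchanged. Around the risen members Sgce and Plagl1 it was 4 of 10, with medians of 0.22 and 0.03, and around Ndn, Magel2 and Inpp5f it was 3 of 10. Around Igf2 it was 2 of 10, namely Mir675 and Lsp1, a leukocyte actin-binding protein gene (change 1.60), with a median of 0.06. Around Nnat and Grb10 it was 1 of 10, and around Peg3, Mest and Meg3 it was 0.

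**Figure D3:**
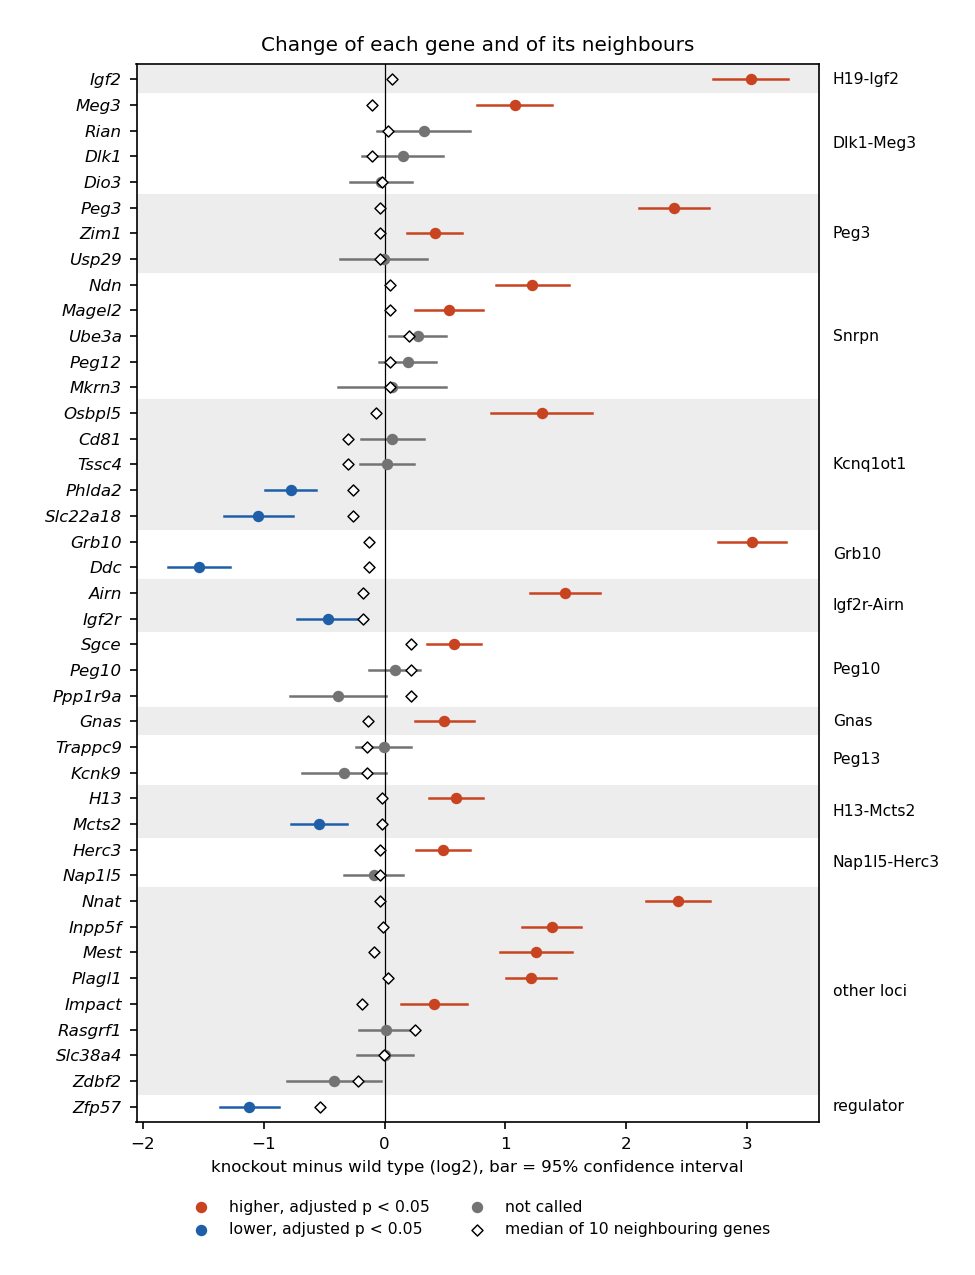
Change between knockout and wild type (horizontal axis, log2) of each measured member with its 95% confidence interval, coloured by call, and the median change of its 10 neighbouring genes (open diamonds), grouped by cluster. The diamonds lie between -0.53 and 0.26, and the members between -1.54, for Ddc, and 3.04, for Grb10. A median over 10 genes varies less than a single gene, so these ranges are not comparable.

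Sorted by the parental copy that textbooks give as expressed, the paternally expressed members had more rises than falls. There were 10 rises among the 21 measured and 1 fall, that of Mcts2, with a median change of 0.19. Among all tested genes 14.2% rose and 12.7% fell. Among 6 measured maternally expressed members, 2 rose (Meg3 and Zim1) and 3 fell (Slc22a18, Phlda2 and Igf2r), with a median of -0.07. Of the 13 whose expressed copy differs by tissue or transcript, 6 rose and 1 fell, with a median of 0.27. Rises thus outnumbered falls there as well as among the paternally expressed members. The difference between these groups was not tested, since members of a cluster share a control region and are not independent.

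The promoters of the members were searched for TGCCGC on either strand, the hexamer that ZFP57 is known to bind when its CpG is methylated. RefSeq promoter windows of 300 bases (250 before to 50 after a transcription start, GRCm38.p6) were found for 36 of the 41 measured members, and for 11 of these, 30.6%, at least 1 window held the hexamer. The share was 17.3% over all tested genes with a window, and 11.6% over the 32851 single windows; genes with several windows had several chances. Of the listed genes that were not measured, Commd1 and the window that Snrpn and Snurf share held it too. It was found for 8 of 16 members that rose, 1 of 6 that fell and 2 of 14 that were not called. The share per window was not computed for the members, nor the share by call over all tested genes. This split therefore has no background beside it. Many control regions lie outside these windows, and a match is no evidence of binding. The windows below are those of the 5 members with a rise of at least 2-fold and a complete hexamer in the first 280 bases, down to 30 bases after the start, 1 window each, in GRCm38.p6 coordinates with the hexamer in capitals:
Grb10 (chr11:12037391-12037670, minus strand): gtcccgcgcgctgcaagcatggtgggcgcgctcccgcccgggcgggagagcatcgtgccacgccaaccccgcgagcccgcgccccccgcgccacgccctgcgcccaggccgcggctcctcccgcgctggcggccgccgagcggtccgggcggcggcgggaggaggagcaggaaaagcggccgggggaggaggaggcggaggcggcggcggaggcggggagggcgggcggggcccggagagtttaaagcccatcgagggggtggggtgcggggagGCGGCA
Mest (chr6:30737800-30738079, plus strand): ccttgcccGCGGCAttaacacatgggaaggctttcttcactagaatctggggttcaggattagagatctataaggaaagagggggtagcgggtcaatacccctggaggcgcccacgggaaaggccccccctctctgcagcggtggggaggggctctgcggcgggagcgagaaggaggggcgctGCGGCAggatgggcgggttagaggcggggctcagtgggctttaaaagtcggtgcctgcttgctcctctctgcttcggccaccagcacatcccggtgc
Plagl1 (chr10:13090582-13090861, plus strand): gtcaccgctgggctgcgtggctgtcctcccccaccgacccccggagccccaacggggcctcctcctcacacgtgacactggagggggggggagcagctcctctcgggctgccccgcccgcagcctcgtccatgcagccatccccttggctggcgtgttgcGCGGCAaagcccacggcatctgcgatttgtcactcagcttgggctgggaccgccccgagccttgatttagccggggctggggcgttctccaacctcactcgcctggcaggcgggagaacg
Meg3 (chr12:109540746-109541025, plus strand): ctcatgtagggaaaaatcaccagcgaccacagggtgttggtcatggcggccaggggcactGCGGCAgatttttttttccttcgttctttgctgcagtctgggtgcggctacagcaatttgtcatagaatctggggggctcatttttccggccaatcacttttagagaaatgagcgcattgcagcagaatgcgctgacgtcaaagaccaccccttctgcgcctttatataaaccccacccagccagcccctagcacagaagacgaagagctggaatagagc
Osbpl5 (chr7:143740331-143740610, minus strand): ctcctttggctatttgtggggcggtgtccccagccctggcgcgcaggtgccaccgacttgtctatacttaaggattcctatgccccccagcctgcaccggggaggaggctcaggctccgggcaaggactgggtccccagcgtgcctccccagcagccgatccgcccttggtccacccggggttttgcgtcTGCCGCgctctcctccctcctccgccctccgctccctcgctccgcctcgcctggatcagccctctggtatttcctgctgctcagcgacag

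These windows differ in CpG content, with 43 CpGs in that of Grb10, 22 in Plagl1, 19 in Osbpl5, 16 in Mest and 11 in Meg3. The Mest window holds the hexamer at 2 places and the others at 1. In windows of Nnat and Igf2 it ends or lies past the bases that would be shown. The window of Peg3, which rose 5.26-fold, holds none.

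Of the factors known to set, keep or erase methylation at imprints, 3 of 28 measured rose and 8 fell, with a median change of -0.10. Among all tested genes 14.2% rose and 12.7% fell, and the 8 falls include Trim28, the deleted gene, and Zfp57. The factors are brighter than most genes, with wild-type means of 8.17 and 8.15 against 5.81 over all tested genes. Among the genes of highest level 15.4% rose and 19.3% fell. Beside Trim28 and Zfp57, the deepest falls were those of Tet2, a 5-methylcytosine dioxygenase gene (-1.89), and Zfp42, a zinc finger gene of stem cells (-0.61). Uhrf1, which guides the maintenance methyltransferase to replicating DNA, fell by 0.36 (adjusted p = 0.0283), and that methyltransferase gene, Dnmt1, averaged 9.82 and 9.66 (change -0.15, adjusted p = 0.259). Dppa3, which protects maternal methylation in the zygote, rose by 1.49, the de novo methyltransferase gene Dnmt3b by 0.52 and Tet3 by 0.47. Zfp445, the second known imprint-binding KRAB zinc finger gene, had a change of 0.21 (adjusted p = 0.263). Setdb1, the H3 lysine 9 methyltransferase gene that works with Trim28, had one of -0.21 (adjusted p = 0.126).

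A further list held genes reported as imprinted, most of them in placenta or single tissues. Of 33 measured, 11 rose and 5 fell, against 14.2% and 12.7% of all tested genes, with a median of 0.09. Dcn, the decorin gene, rose by 2.64, Atp10a, a lipid flippase gene, by 1.74, Sfmbt2, a Polycomb-related gene of the trophoblast, by 1.52 and Calcr, the calcitonin receptor gene, by 1.13. Cobl (-2.62), Tspan32 (-1.05), Qpct (-0.99) and Jade1 (-0.46) fell. Cdkn1c, the growth inhibitor of the Kcnq1ot1 domain, rose by 0.58, from 6.67 to 7.25 (adjusted p = 0.00542).

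Markers of other cell types moved in the same samples, where 14.2% of all tested genes rose and 12.7% fell. Fibroblast markers, which the feeder cells share, rose in 16 of 22 and fell in 0, with a median change of 1.01 and a mean level of 5.64 and 5.34 in the wild type against 6.70 and 6.70 in the knockout. The largest rises were those of Acta2 (4.65), Tagln (4.61), Dcn, also counted above (2.64), and Col1a1 (1.78). Acta2 and Tagln ranked 3 and 4 among the rises of all tested genes. The wild-type replicates of Acta2 differed widely, with 6.78 and 4.64 against 10.27 and 10.46 in the knockout. Fn1 averaged 10.88 in wild-type and 10.91 in knockout samples, Lum 3.06 and 3.23, and S100a4 4.26 and 4.36, none of these 3 called. Of the stem cell markers 7 of 10 fell and 0 rose (mean level 10.47 and 10.46 against 9.94 and 9.64), although Pou5f1 still read 10.82 in the knockout. Among trophoblast markers 5 of 11 rose and 1 fell, among primitive endoderm markers 5 of 10 rose and 0 fell, and among neuronal markers 1 of 6 rose and 1 fell. Igf2, Grb10, Peg3, Mest and Plagl1 are known to be expressed in fibroblasts or in early differentiated cells. The part of these cells in the rises was not tested, and in bulk RNA a change in the share of cells of a type cannot be told apart from a change in RNA per cell.

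**Figure D4:**
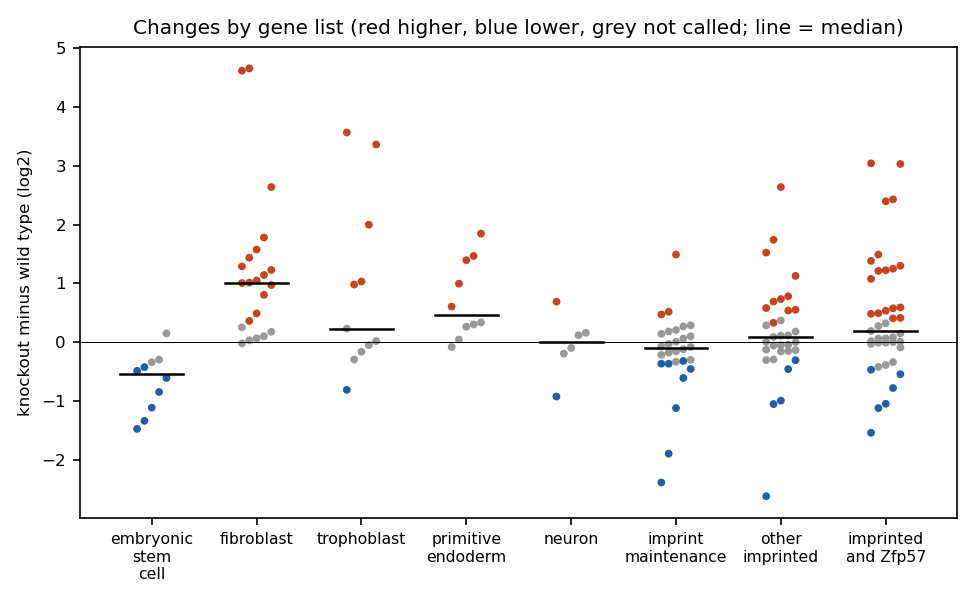
Change between knockout and wild type (vertical axis, log2) of each measured gene of the marker lists, the imprint maintenance factors, the further imprinted genes and the 41 members; points are red where higher, blue where lower and grey where not called, and lines are medians. The members reach from -1.54 to 3.04 around a median of 0.19, and the fibroblast markers have a median of 1.01.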

How the data were processed

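Total RNA (250 ng per sample, per the labels' protocols) from 2 wild-type and 2 Trim28 knockout samples was hybridised to Affymetrix Mouse Gene ST arrays. The deposited values are on a log2 scale. The submitters' processing notes name affy and RMA, without versions, as the tools of the authors. RMA compresses differences among dim probe sets. Signal over background is unknown, since detection values were not used here, and the number of arrays limits the precision. Of 35556 probe sets, the annotation lists 21218 with 1 symbol, 1881 with several and 12457 not at all. The probe set of highest mean was kept for each of 18820 genes, without a filter. Groups came from the sample titles. Groups were compared in R 4.3.3 with limma 3.58.1 (linear fit with moderated variances, two-sided, Benjamini-Hochberg over all genes, threshold 0.05), with 2 residual and 4.70 prior degrees of freedom; the fit was tested on simulated data. The members and lists were chosen with earlier results of these data known. Every member is accounted for, members past the threshold are given with all 4 values, and up to 4 genes per direction are named from the other lists; further genes were named after their values were seen. The alternatives tried were a block on the replicate number, a trended or robust prior, filters on dim genes, quantile normalization, median subtraction, mean probe sets, a threshold of 0.1 and each sample left out.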

Additional observations from a re-analysis of the deposited data

How the results depend on the processing

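Of the 24 called members, 17 kept their call under all alternatives that tested them. Among these, Sgce, H13 and Osbpl5 kept it only narrowly with 1 sample left out. The 7 exceptions are named in the report. The fit with the replicate number as a block gave 18 members higher and 7 lower (18 and 6 without it), the added call being Ppp1r9a (-0.39, limma adjusted p = 0.0414), and 2690 and 2403 of all genes. Deviations of same-numbered samples correlated at 0.145, and 2 pairs do not settle whether the numbers pair the samples. With 1 sample left out at a time, where the lone sample of a group is assumed to vary like the others, 1531 to 2405 of all genes were higher (2676 with all samples) and 899 to 1945 lower (2395), the fewest of both without wild-type replicate 2; fewer samples were fitted there. Without wild-type replicate 1 the counts were 1649 and 998, and without knockout replicate 2 they were 2217 and 1492. With array medians subtracted 6392 genes were lower, by construction of that scaling. Sign changes occurred only among members without a call. With array medians subtracted these were Dlk1 (-0.019), Mkrn3 (-0.11), Cd81 (-0.10), Tssc4 (-0.15), Peg10 (-0.086), Slc38a4 (-0.17) and Rasgrf1 (-0.16), and after quantile normalization Usp29 (0.050) and Tssc4 (-0.026). With 1 sample left out, the changes ranged from -0.049 to 0.35 for Dlk1, -0.14 to 0.079 for Dio3, -0.22 to 0.20 for Usp29, -0.20 to 0.33 for Mkrn3, -0.053 to 0.18 for Cd81, -0.034 to 0.073 for Tssc4, -0.068 to 0.051 for Trappc9, -0.18 to 0.0060 for Nap1l5, -0.060 to 0.065 for Slc38a4 and -0.049 to 0.073 for Rasgrf1. Other background corrections need scanner intensities and were not run.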
